A study of Arabidopsis thaliana with 2 samples.

Results

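HTA11, PTM and AT1G45248 are 3 Arabidopsis genes annotated with roles at or around chromatin. They were chosen from the genes with a row in the authors' tables of altered splicing. The listed genes were not all searched by annotation here, so others of that kind may be listed. Every row whose gene identifier maps to HTA11 (AT3G54560), PTM (AT5G35210) or AT1G45248 was taken, which gave 5 of the 270 listed events and 3 of the 227 genes. The tables compare embryos of a mutant called lefko with wild-type embryos, both of the Col-0 ecotype, dissected from siliques between the globular and heart stages, with 1 sample per genotype. The labels name the source as seeds. The mutant sample is labelled lefko1, while lefko2 is written in the title of the series, the extraction protocol and the tables' headings. The series has a single mutant sample, so the spellings were treated as one mutant, written lefko mutant below. The gene that carries the mutation is not named in the labels, and its transcript was not analysed here.

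H2A.Z is a variant of histone H2A that the SWR1 remodelling complex places into nucleosomes, often near the start of genes, and it is known in plants for roles in responses to temperature and in the timing of flowering. HTA11 encodes an H2A.Z protein, as do HTA8 and HTA9. PTM encodes a protein with a plant homeodomain (PHD) finger and transmembrane segments that is bound to the chloroplast envelope. Its cleaved amino-terminal part was reported to move to the nucleus and to activate the transcription factor gene ABI4. That would make PTM part of signalling from plastids to the nucleus. AT1G45248 is annotated only as related to a nucleolar histone methyltransferase. In a spliced messenger RNA a change outside the reading frame leaves the protein as it is, whereas an exon junction downstream of a stop codon can mark the transcript for nonsense-mediated decay.

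Each event compares a form that includes a segment with a form that lacks it. The authors deposited 3 whole read numbers per genotype for each form, and no label says whether they are cultures, libraries or sequencing runs. A share here is the percentage of summed reads, inclusion over inclusion plus skipping, with an exact Clopper-Pearson 95% interval that covers counting error only. The labels give 1 sample per genotype, so no difference below was checked over known replicates. The columns headed IC and SC were read as inclusion and skipping reads.

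The splice sites decide which segment each event changes, so they are shown first, as 15 bases on either side of the exon edge, 5′ to 3′, from the TAIR10.1 RefSeq genome whose chromosome accessions equal those of the tables. The conserved dinucleotide at the intron edge is in capitals. At HTA11, on the plus strand of chromosome 3, the sites are those around a 55-base exon.
End of the upstream exon, chr3:20195937-20195966: cgaaatcatacaaagGTacgtctaacaatc
Start of the 55-base exon, chr3:20196257-20196286: attctattcaaccAGatttcgtttctttcg
End of the 55-base exon, chr3:20196312-20196341: cgtcgtcgtctcaagGTactttacttctct
Start of the downstream exon, chr3:20196484-20196513: actgtgtacggttAGatctagaagaaggaa

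At PTM, on the minus strand of chromosome 5, a pair of 5′ sites of 1 exon competes, and a further annotated 5′ site of that exon, which enters neither event, is shown with them.
End of the long exon, chr5:13475955-13475984: atgattaactttcatGTattggtgatatct
End of the short exon, chr5:13476063-13476092: ctagtttttttttagGTttgtcttcgtcta
Exon end that keeps the frame open, chr5:13476212-13476241: gctgtggtcaatgccGTgagtggcagtagc
Start of the flanking exon, chr5:13475875-13475904: cttgtttatttgcAGgaattagggcactag

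At AT1G45248, on the minus strand of chromosome 1, a coding exon (chr1:17163346-17163420) starts at either of a pair of 3′ sites. It is printed whole, with the 21 bases that only the longer form holds in lower case and the 54 bases of both forms in capitals, and its paired 3′ sites follow in the same layout as above.
AT1G45248 exon: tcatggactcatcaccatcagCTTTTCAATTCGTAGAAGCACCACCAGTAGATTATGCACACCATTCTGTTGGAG
Start of the 75-base exon, chr1:17163406-17163435: tcactaacgaagcAGtcatggactcatcac
Start of the 54-base exon, chr1:17163385-17163414: actcatcaccatcAGcttttcaattcgtag

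**Figure D1:**
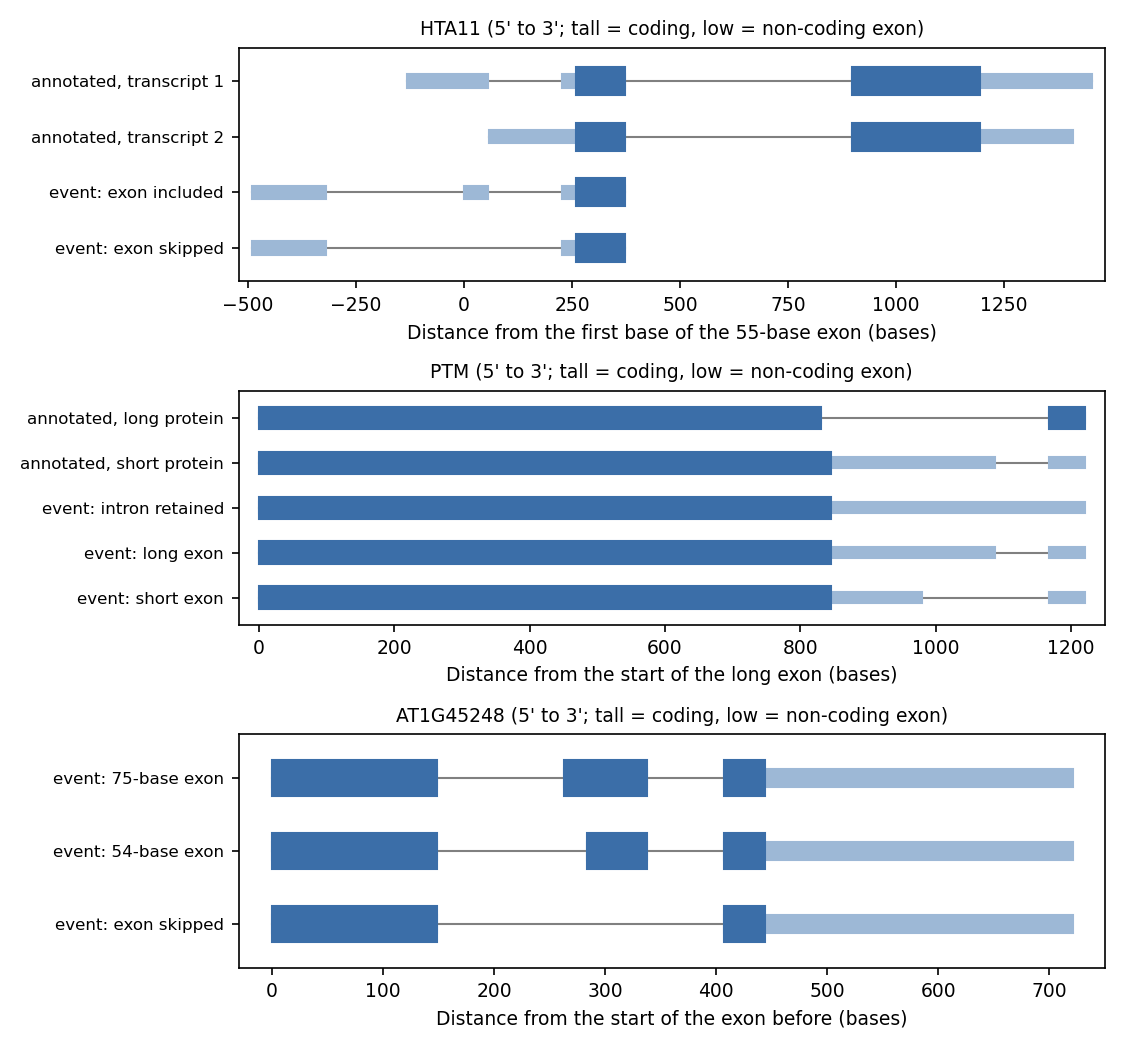
Exon models of the annotated and event forms of HTA11, PTM and AT1G45248, drawn to scale 5′ to 3′ against the distance in bases from the start of an event exon; tall boxes are coding, low boxes non-coding exon and lines introns, and event forms are cut at the last exon of the event. The HTA11 event lies before the coding sequence, the PTM events lie after the stop codon and the AT1G45248 exon lies inside the coding sequence.

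HTA11 had a larger share of reads that include the 55-base exon in the mutant, and the difference lies in the 5′ leader, so the H2A.Z protein of 136 residues is the same in both forms. The 3 wild-type values were 446, 378 and 270 inclusion reads beside 109, 121 and 75 skipping reads. The 3 mutant values were 99, 60 and 119 inclusion reads beside 3, 8 and 6 skipping reads. As shares these were 80.4%, 75.8% and 78.3% in the wild type and 97.1%, 88.2% and 95.2% in the mutant. Every mutant value lay above every wild-type value, as in 42.2% of all listed events, and the second mutant value was the lowest of its genotype.

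Summed, the exon was included in 78.2% (95% interval 75.9 to 80.3) of the 1399 wild-type reads and in 94.2% (90.9 to 96.6) of the 295 mutant reads. The difference was 16.0 percentage points (Newcombe interval 12.2 to 19.1), and the log2 odds ratio was 2.15 (SE 0.37 from counting). The authors' deposited table gives this event p = 1.95e-07 and an FDR of 0.000124. A two-sided Fisher's exact test of the summed counts gave p = 2.72e-12 (1.47e-11 adjusted over all 270 events), a comparison of the 2 samples rather than of the genotypes. Of the exon skipping events the authors tested, 0.596% were listed, so each event here is one that had already passed their threshold. Within that table of 19 events HTA11 ranked 5th by FDR and 15th by the size of its difference.

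The exon (chromosome 3, 20196272 to 20196326) is the 3′ end of the annotated first exon of HTA11 (20196140 to 20196326). The upstream exon of the event (20195780 to 20195951) overlaps no annotated exon on its strand and ends 188 bases before the annotated start of the gene. Its 5′ splice site and the 3′ splice site of the 55-base exon are not annotated, whereas the sites of the intron after the exon are. Inclusion reads that cross from the 55-base exon to the downstream exon would also arise from transcripts that start in the annotated first exon. The tables do not separate these from transcripts that start in the upstream exon, so the share of the exon cannot be told apart from a choice of transcript start.

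With the upstream exon as listed, the leader before the HTA11 start codon is 260 bases long with the exon and 205 bases without it. The upstream exon carries 1 ATG, whose reading frame closes before the main start codon in both forms, and the 55-base exon carries 0. The exon consists of T in 52.7% of its bases, against 26.7% in the upstream exon and 15.2% in the non-coding part of the downstream exon. It occurs at 1 place in the genome as an exact match, so reads within it are not shared with an identical copy.

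Fewer reads were seen at HTA11 in the mutant, for both forms but unequally. Mutant inclusion reads were 0.254 times the wild-type number (exact conditional 95% interval 0.222 to 0.290) and skipping reads 0.0557 times (0.0320 to 0.0907). Over all 270 events the mutant had a median of 0.472 times the event reads of the wild type, and 36 events had a lower ratio than the 0.211 of HTA11. Library totals were not analysed here, so these ratios are not expression levels. In whole embryos, fewer cells of a type and less RNA per cell cannot be told apart.

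**Figure D2:**
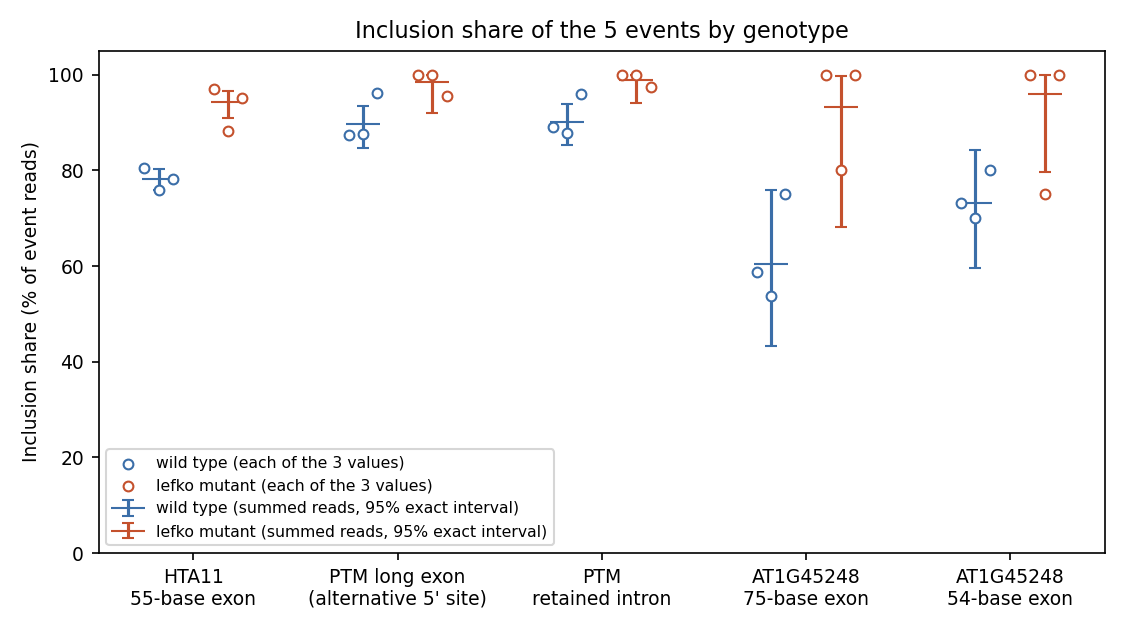
Inclusion share in percent of event reads for the 5 events, wild type in blue and lefko mutant in orange; open circles are the 3 deposited values of each genotype, and the dash with its bar is the share of summed reads with its exact 95% interval. HTA11 has 78.2% and 94.2% with no overlap of its values, while the values overlap for the PTM alternative 5′ site and the 54-base exon of AT1G45248.

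At PTM, reads that used the 5′ splice site of the short exon were rare in the mutant, so the forms that run past this site made up more of its reads. The wild type had 9, 10 and 2 reads that joined this site to the flanking exon, and the mutant had 0, 0 and 1. These skipping reads are the same in both PTM events, so the events are not separate evidence. In the alternative 5′ splice site event the inclusion reads for the longer exon were 62, 70 and 50 in the wild type and 21, 24 and 21 in the mutant. The shares were 87.3%, 87.5% and 96.2% in the wild type against 100%, 100% and 95.5% in the mutant. The third mutant value lay below the third wild-type value, so the genotypes overlapped.

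Summed, the long exon took up 89.7% (84.6 to 93.5) of the 203 reads from the wild type and 98.5% (92.0 to 99.96) of the 67 from the mutant, a difference of 8.85 points (1.49 to 14). The log2 odds ratio was 2.38 with an SE of 1.24. The authors' deposited table gives p = 0.000148 and an FDR of 0.00717, and Fisher's exact test of the summed counts gave p = 0.0196 (adjusted p = 0.0258). Of the alternative 5′ events the authors tested, 3.50% were listed. The PTM event ranked 61st of 70 by the size of its difference. A count of 0 skipping reads in the first and second mutant values allows shares of up to 14.3% and 12.5%, limits that include the summed wild-type skipping share of 10.3%.

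In the intron retention event the retained reads were 73, 72 and 47 in the wild type and 26, 26 and 37 in the mutant. The retained shares were 89.0%, 87.8% and 95.9% in the wild type and 100%, 100% and 97.4% in the mutant. Here all mutant values lay above all wild-type values, although the lowest mutant value, 97.4%, and the highest wild-type value, 95.9%, were close. The 0 skipping reads in the first and second mutant values allow skipping shares of up to 11.5% each. That limit includes the summed wild-type skipping share of 9.86%.

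Summed, the intron was retained in 90.1% (85.3 to 93.8) of the 213 wild-type reads and in 98.9% (94.0 to 99.97) of the 90 mutant reads. The difference was 8.75 points (2.81 to 13.6) and the log2 odds ratio 2.74 (SE 1.23). The authors' deposited table gives p = 7.03e-06 and an FDR of 0.000713, and Fisher's exact test of the summed counts gave p = 0.00626 (adjusted p = 0.00939). Of the retention events the authors tested, 2.22% were listed, and the PTM event ranked 107th of 115 by size. The intron as listed (chromosome 5, 13475890 to 13476077) has 188 bases. Of these, the 108 from 13475970 on also belong to the long exon, and the 80 from 13475890 to 13475969 belong to the retained form alone. The tables do not separate retention from use of the long exon.

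All of these PTM forms carry the stop codon at 13476213 to 13476215, and each encodes 1539 residues. The paired sites and the retained intron lie after that stop codon, so the events change the 3′ untranslated part of this transcript form. The annotated long-protein form instead uses an intron that begins at 13476226, before the stop codon, and encodes 1678 residues. Reads that use this further site enter neither event, so the balance between the long and the short protein was not measured here. From the stop codon to the next exon junction there are 243 bases in the long-exon form, 135 in the short-exon form and 376 with the intron retained. With the last exons of the annotated short-protein transcript, 6 junctions follow the stop codon in the long-exon and short-exon forms. With the intron retained 5 follow it. The annotated long-protein form has 2 after its own stop codon, and decay was not tested.

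The PTM sites differ in how closely they match other Arabidopsis splice sites. Scores came from a position weight matrix of annotated nuclear introns, over 3 exon and 6 intron bases for 5′ sites and over 14 intron and 3 exon bases for 3′ sites. The 5′ site of the short exon scored 7.62 bits, above 60.9% of 136048 annotated sites, although it is not itself annotated. The annotated site of the long exon scored 4.46 bits, above 14.4%, and the site that keeps the frame open 1.55 bits, above 2.60%. Between the paired sites of the alternative 5′ event, the site with fewer listed reads in both genotypes was the one with the higher score, although reads of the long exon can fall on more bases. The shared 3′ site of the flanking exon scored 14.51 bits, above 99.3% of annotated 3′ sites.

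AT1G45248 had a smaller share of reads that skip a coding exon in the mutant, on few reads. For the 75-base form the inclusion reads were 10, 7 and 6 in the wild type and 1, 4 and 9 in the mutant. The skipping reads were 7, 6 and 2 in the wild type and 0, 1 and 0 in the mutant, and they serve both AT1G45248 events. The shares of the 75-base form were 58.8%, 53.8% and 75% in the wild type and 100%, 80.0% and 100% in the mutant. All mutant values were higher, but the first of them rests on 1 read.

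Summed, the 75-base form took up 60.5% (43.4 to 76.0) of the 38 reads from the wild type and 93.3% (68.1 to 99.8) of the 15 from the mutant, intervals that overlap. Each AT1G45248 event sets its own inclusion form against skipping alone, so its share is not a share of all forms at this exon. The difference was 32.8 points (5.82 to 49.5), and the log2 odds ratio was 2.67 (SE 1.32). The authors' deposited table gives p = 1.06e-05 and an FDR of 0.00339. Fisher's exact test of the summed counts gave p = 0.0220 (adjusted p = 0.0284).

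For the 54-base form the inclusion reads were 19, 14 and 8 in the wild type and 10, 3 and 11 in the mutant. The shares were 73.1%, 70.0% and 80.0% in the wild type and 100%, 75% and 100% in the mutant. The second mutant value, from 4 reads, lay below the third wild-type value, so the genotypes overlapped. Summed, the share was 73.2% (59.7 to 84.2) over the 56 wild-type reads and 96.0% (79.6 to 99.9) over the 25 mutant reads. The difference was 22.8 points (4.40 to 36.0), with a log2 odds ratio of 2.61 (SE 1.29). The authors' deposited table gives an FDR of 0.00884, and Fisher's exact test gave p = 0.0171 (adjusted p = 0.0228).

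The balance between the 75-base and 54-base starts of the exon varied too much among the 3 mutant values to be compared between genotypes. Summed inclusion reads of the 75-base form were 0.561 times those of the 54-base form in the wild type and 0.583 times in the mutant. By value the ratios were 0.526, 0.50 and 0.75 in the wild type and 0.10, 1.33 and 0.818 in the mutant. Without the first mutant value the mutant ratio was 0.929, without the second 0.476 and without the third 0.385. Both forms end at the same base and share the junction to the last exon, so these reads overlap and no test was made of the ratio.

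All forms of AT1G45248 stay in frame, and each is an annotated transcript structure at this exon. The exon lengths are multiples of 3, and the start and stop codons are the same. The encoded proteins have 129 residues with the 75-base exon, 122 with the 54-base exon and 104 when the exon is skipped. The skipped and the 75-base proteins share their first 92 and last 12 residues. The 3′ splice sites of both exon starts had low matrix scores, at 0.48 bits for the 75-base start (above 2.14% of 136049 annotated sites) and 1.89 bits for the 54-base start (above 4.02%). The 5′ site at the end of the exon, at 6.93 bits, was above 48.5% of annotated sites.

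**Figure D3:**
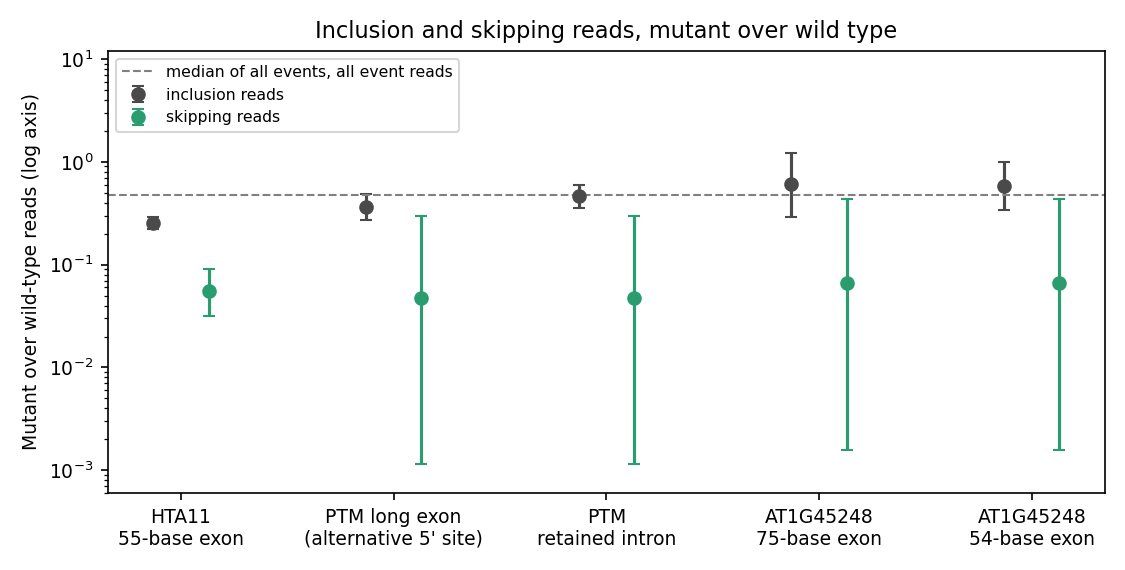
Ratio of mutant to wild-type reads on a log axis for each of the 5 events, inclusion reads in dark grey and skipping reads in green, with exact conditional 95% intervals from counting; the dashed line is the median ratio of all reads over the 270 events, 0.472. At HTA11 both ratios, 0.254 and 0.0557, lie below that line, and in the other 4 events the skipping ratio rests on 1 mutant read.

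Side by side, all 5 events had a higher inclusion share in the mutant, where 60.0% of the 270 listed events did. By table the share of listed events higher in the mutant was 73.7% for exon skipping, 67.1% for alternative 5′ sites and 55.7% for intron retention. The 5 events come from 3 genes, and those of PTM and of AT1G45248 share their skipping reads, so the count stands for 3 loci. In 3 of the 5 events the 3 values did not overlap between genotypes, with the mutant higher. Among all listed events the values did not overlap in 71.5%, and with the mutant higher in 42.2%. Fisher's exact test had an adjusted p under 0.05 in all 5, against 84.1% of all listed events. The adjustment was over the 270 listed events alone, which had already passed the authors' threshold. It does not correct for that selection, so these p-values are not separate evidence. In 4 of the 5, but not at HTA11, the mutant had 1 skipping read, and of all listed events, 89 had at most 1.

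The log2 odds ratios of the 5 events, 2.15 to 2.74, lay close together beside their errors of 0.37 to 1.32, and the median size over all 270 events was 2.90. On the scale of percentage points the PTM events were small and the AT1G45248 event with the 75-base exon was the largest of the 5. Larger differences than those of PTM were seen in 92.2% and 92.6% of listed events, and than that of the 75-base exon in 34.1%. The median size over the 270 events was 26.4 points.

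**Figure D4:**
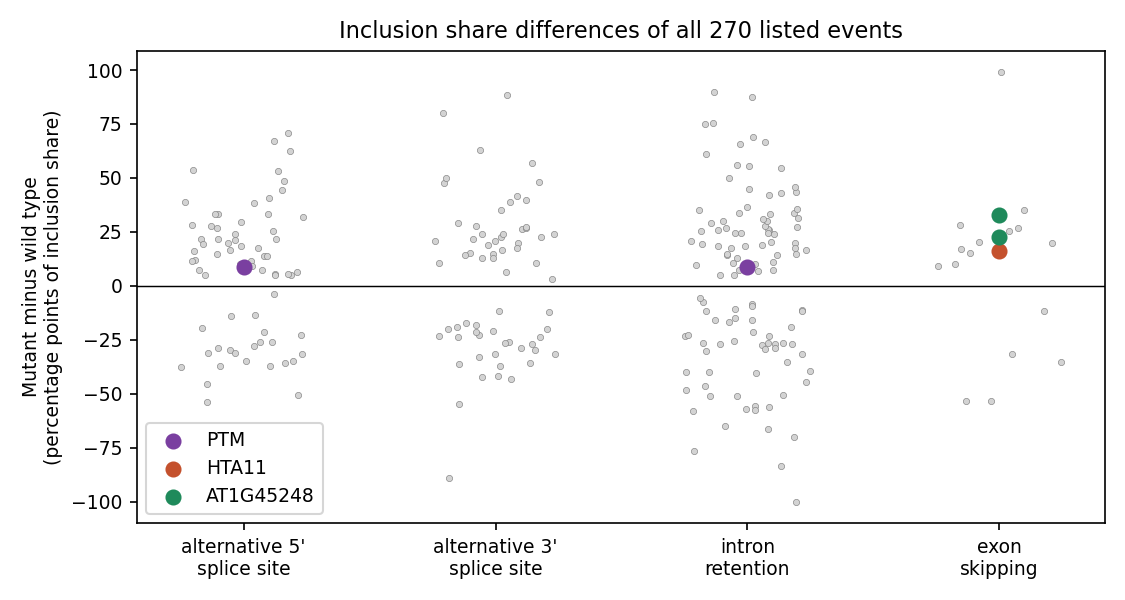
Mutant minus wild-type inclusion share in percentage points for all 270 listed events, by table; grey points are other events and coloured points the 5 events of HTA11, PTM and AT1G45248. The 5 lie above 0, at 16.0 for HTA11, 8.85 and 8.75 for PTM, and 32.8 and 22.8 for AT1G45248.

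Lists of related genes held 83 genes, among them HTA11 and PTM, which were chosen because they have a listed event. These 2, both higher in the mutant, were therefore hits by choice, and no other gene on the lists had a listed event. Of 13 H2A genes, HTA11 was the only one with a listed event. HTA8 and HTA9, which also encode H2A.Z proteins, had none, although their proteins are the closest to HTA11 among these genes, with 90.4% and 83.8% identical residues. HTA4, the next closest with 55.9%, had none either. In coding sequence HTA8 matched HTA11 in 81.8% of aligned bases. The lists of SWR1 and INO80 subunits (11 genes matched), of histone lysine methyltransferases (34) and chromatin remodelers (8) held 0 genes with an event. A list of other histone genes (8) also held 0. That list took only symbols of HTB, HTR or HIS followed by a number. Histone genes outside these symbols and the H2A family were not looked up. Of 9 genes of plastid-to-nucleus signalling, PTM was the only one listed, and its reported target ABI4 was not. AT2G40020, the other gene annotated like AT1G45248, had no listed event. Of all annotated protein-coding genes, 213 of 27562 had an event. The count on the lists cannot be compared with this, because HTA11 and PTM were placed there by choice. The tables hold only events that passed the authors' threshold, so the coverage of genes without a listed event is not known here.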

How the data were processed

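The labels give 1 wild-type and 1 mutant sample. The authors deposited 4 tables of splicing events, whose p-values and FDRs are theirs and whose count cells each join 3 whole numbers of reads. HISAT2 2.0.4 and TAIR10 are named in the submitters' processing notes, while the event caller is not given in the sources used here. Events with an FDR up to 0.0500 were deposited. The number tested was recovered from p-values and FDRs of the Benjamini-Hochberg form.

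The 3 numbers, of unknown origin, were summed. Also tried were the mean of the 3 shares, leaving out each value, another pseudocount, a read minimum and adjusted p-values. Shares were not corrected for the length reads can fall on, so they compare genotypes within an event. Odds ratios used a pseudocount of 0.5 reads. Fisher's exact tests (SciPy 1.17.1, Python 3.11.15) ran over all 270 listed events. Their Benjamini-Hochberg adjustment covered these events alone and not all events the authors tested. The tests were also run on simulated data. The simulated reads were independent and not selected by FDR, so that run cannot show how the tests behave on these events. Reads are not known to be independent molecules, so intervals cover counting error only, and where a count was 0 the limit is 3 reads. Event depth ran from 4 to 3739 wild-type and 3 to 30376 mutant reads.

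Starts in the tables count from 0 and were printed from 1, since 583 of 810 exons then equal an annotated exon, against 1 otherwise. Sequence and annotation are those of RefSeq TAIR10.1. Gene lists were matched by symbol or synonym, except the other histone genes, which were matched by symbol alone. All rows of the 3 genes are named. The members and lists were chosen with earlier results of these data known.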

Additional observations from a re-analysis of the deposited data

How the results depend on the processing

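All 5 inclusion share differences kept their direction under each alternative run, and none moved outside its counting interval. With the unweighted mean of the 3 shares they were 15.4 points for HTA11, 8.16 and 8.21 for the PTM 5′ site and retention events, and 30.8 and 17.3 for the 75-base and 54-base exons of AT1G45248. Leaving out 1 of the 3 values of both genotypes gave 15.4 to 16.5, 6.62 to 12.6, 6.83 to 11.6, 26.7 to 36.0 and 20.0 to 25 points in the same order. With a pseudocount of 1 read the log2 odds ratios were 2.11, 2.01, 2.36, 2.32 and 2.25. Among the 3 of the 5 events with at least 5 reads in every value, 2 did not overlap. Over all listed events that minimum left 163, of which 123 did not overlap, against 193 of 270. The lower count follows from the fewer events compared. Adjustment moved the Fisher count over all events from 228 to 227. Shares corrected for form length were not run, because the tables used here hold no form lengths. No paired analysis was possible because the labels give 1 sample per genotype, and no test made here was over replicates. How the authors' p-values treat the 3 values is not known here. With 1 mutant skipping read in 4 of the 5 events, depth limits how precisely their shares are known. The ratio of 75-base to 54-base reads of AT1G45248 was taken by value only after the data were seen, and leaving out 1 value gave wild-type ratios of 0.515 to 0.593 and mutant ratios of 0.385 to 0.929.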
